A study of Mus musculus with 12 samples.

Results

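The genes described here mark pulmonary neuroendocrine cells, and they were chosen by symbol: Calca, Chga, Chgb, Insm1, Neurod1, Resp18, Uchl1, Syp and Scg2. All 9 were among the 24421 gene symbols of the deposited count table, and 8 of them passed the filter on low counts and were among the 15246 genes tested. RNA was sequenced from whole lungs of wild type CD-1 mouse embryos, taken at day 12.5 of gestation and cultured in Matrigel drops at an air-liquid interface. On the next day, called Day 0, a 20% solution of the polymer PEG-HCC was dispersed in the Matrigel around the lungs. The 3 groups of 4 libraries are Day 2 compression (polymer crosslinked with a laser around the lungs, restricting their growth for 2 days), Day 2 control (polymer added but not crosslinked) and Day 0. The labels do not say whether Day 0 lungs received the solution, nor which libraries share an animal or litter, so p-values measure only the spread between these samples, which may be technical.

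Pulmonary neuroendocrine cells are rare epithelial cells of the airways that sense stimuli and release peptides and amines. They arise early among the airway cell types, and Notch signalling between neighbours restricts their number. They store their products in dense-core granules, whose matrix is built by granins (Chga, Chgb, Scg2), and they also carry small vesicles like those of synapses. Neurons share most of this machinery, and airway neurons derived from the neural crest lie close to the same airways in the fetal lung.

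Promoter letters are shown for Calca and Resp18, which differed between compression and Day 0, and for the granin Chga, which was not called in any comparison, so that they can be read side by side. RefSeq windows of GRCm38.p6 were available for 8 members, and Insm1 had none. Each sequence gives the 250 bases before the RefSeq start, 5′ to 3′ on the strand of the gene. Capitals mark TGACG, the core of the cAMP response element TGACGTCA, and the E-box CAGCTG.
Calca (chr7:114636358-114636607, minus strand): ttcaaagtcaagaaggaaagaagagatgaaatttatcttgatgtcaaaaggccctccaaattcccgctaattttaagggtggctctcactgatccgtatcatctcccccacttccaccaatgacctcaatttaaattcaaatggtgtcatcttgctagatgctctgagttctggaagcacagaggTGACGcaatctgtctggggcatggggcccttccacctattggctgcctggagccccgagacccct
Resp18 (chr1:75278416-75278665, minus strand): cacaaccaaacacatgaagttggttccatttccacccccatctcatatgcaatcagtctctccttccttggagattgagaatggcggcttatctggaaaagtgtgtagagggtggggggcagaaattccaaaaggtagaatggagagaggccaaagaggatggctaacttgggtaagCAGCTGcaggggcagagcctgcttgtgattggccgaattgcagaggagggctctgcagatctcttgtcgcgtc
Chga (chr12:102554691-102554940, plus strand): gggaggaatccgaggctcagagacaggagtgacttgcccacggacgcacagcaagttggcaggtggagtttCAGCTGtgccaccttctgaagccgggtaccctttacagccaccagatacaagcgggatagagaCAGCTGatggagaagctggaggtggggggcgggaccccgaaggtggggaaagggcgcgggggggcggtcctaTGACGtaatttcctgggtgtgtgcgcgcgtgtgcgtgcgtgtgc
Both strands were searched, and TGACGTCA always contains TGACG. The full TGACGTCA stood in the windows of Scg2 and Chgb, that is in 2 of 8 member windows, against 1.55% of the 32851 windows of all genes. For these genes GENCODE places the start of the gene further upstream than RefSeq, so that both matches lie inside its first exon, and their windows are not printed. TGACG stood in 4 of 8 member windows (the 3 granins and Calca), against 17.77% of all windows. CAGCTG stood in 2 of 8 windows, Resp18 and Chga, against 13.0% of all windows. A match describes letters only.

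Total counts were 25680019 to 31739019 under compression, 15452117 to 30805341 in controls and 13979871 to 33249761 at Day 0. Levels are given as CPM, counts relative to the TMM-adjusted library total, and errors are SDs over the 4 libraries of a group. A count of 0 over the 4 libraries of a group allows up to 3 counts, which is 0.0260 CPM under compression, 0.0285 CPM in controls and 0.0324 CPM at Day 0 and covers counting error only. Control replicate 4 stood apart by liver transcripts, with a summed level of 8 liver markers of 1836 CPM, against 62.8 to 74.6 CPM in the other controls. Compression replicates 2 and 3 were more alike than any other within-group pair, with a mean chi-square per gene of 4.09, against at least 7.51 in the other pairs. Their titles number them as separate replicates, while their descriptions share a number and differ only in a final letter. They were counted as 2 samples, and compression may hold fewer than 4 distinct samples. With the pair summed, an alternative chosen after seeing the data, the calls of compression against Day 0 given below were kept, with edgeR adjusted p of 0.0203 for Calca, 0.00206 for Scg2 and 0.0128 for Resp18.

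Apart from Uchl1 and Syp, every member stood at or below 1.93 CPM in every library. Compared per length of exon, Uchl1, which encodes the ubiquitin hydrolase PGP9.5, was the highest in every group, at 15.6 ± 1.15 CPM per kb under compression, 17.2 ± 1.46 in controls and 17.2 ± 0.643 at Day 0 (SD, n = 4 each). Syp, which encodes the vesicle membrane protein synaptophysin, was next, at 1.26 ± 0.300, 1.45 ± 0.290 and 0.980 ± 0.182 CPM per kb in the same order of groups. Under compression Resp18, Chgb, Scg2, Insm1, Chga and Calca followed in that order, between 0.763 and 0.180 CPM per kb. From Chgb to Calca the ranges of mean ± SD of neighbours overlapped, while Resp18 stood apart from Syp above it and Chgb below it. At Day 0 Calca was the third highest, at 0.425 CPM per kb, and Scg2 the lowest of the tested members, at 0.0506. Uchl1 alone held 66.4% to 71.6% of the summed CPM of the 9 members under compression, 66.2% to 73.6% in controls and 74.8% to 79.7% at Day 0. A sum over the members therefore describes Uchl1, and the members are treated one by one below.

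The label of the list was compared with the other markers of the cell type and of its neighbours. Grp, which encodes gastrin-releasing peptide, an abundant product of these cells in the human fetal lung, had 1 to 6, 1 to 4 and 1 to 7 counts per library in the same groups and was not tested. Nkx2-1, the transcription factor of lung epithelium, averaged 236 CPM under compression, 241 CPM in control lungs and 169 CPM at Day 0. Neurons were present too. All 16 neuron markers had reads in all 12 libraries, and their summed level was 138 to 204 CPM under compression, 120 to 181 CPM in controls and 127 to 181 CPM at Day 0. The part of neurons in the levels of Uchl1, Syp, Scg2 and the other shared genes was not tested. In whole lungs, fewer cells of a type and less RNA per cell cannot be told apart.

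**Figure D1:**
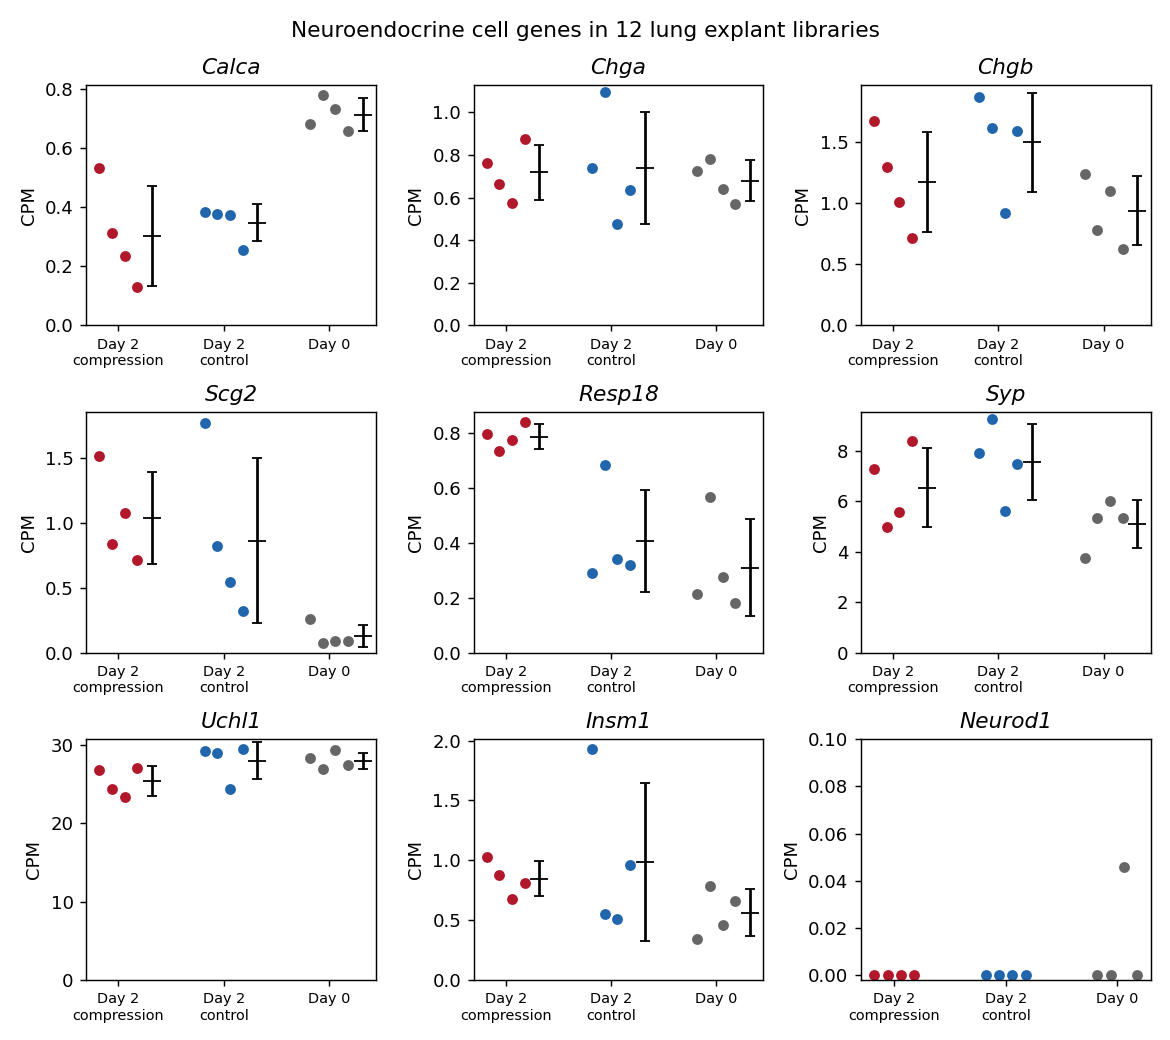
CPM of the 9 genes (vertical axes, starting at or just below 0) in each library, drawn as points by group in replicate order from left to right, with the group mean and SD as a bar beside them (none for Neurod1). Calca lies lower in all 8 Day 2 libraries than in any Day 0 library, Scg2 lies higher in all 8, and Resp18 lies at 0.734 to 0.842 CPM in the compression libraries, above every control.

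Compression was compared with control at Day 2 to ask what crosslinked polymer that holds the lung does to these genes. Crosslinking and restriction of growth cannot be told apart in this design. None of the 8 tested members passed edgeR's threshold, an adjusted p of 0.05, where 0% of all tested genes did. An unadjusted p under 0.05 was found for 1 of 8 members, Resp18, against 12.1% of all tested genes. DESeq2 called 0 members and 69 genes in all. With quality weights, limma-voom called 1 member, again Resp18, and 1958 of all 15246 genes, so 1 of 8 is near its background too. Of the 8, 2 had positive log2 fold changes (51% of all genes) and 6 negative ones (49% of all genes), and their median log2 fold change was -0.17, against 0.00 over all genes tested.

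Resp18 encodes a protein of the secretory pathway of endocrine and neuronal cells that enters dense-core granules. It had 0.798, 0.734, 0.777 and 0.842 CPM in compression replicates 1 to 4, against 0.290, 0.686, 0.340 and 0.319 CPM in control replicates 1 to 4. All 4 compression libraries were above all 4 controls, and control replicate 2 lay close to them. Groups did not overlap for 1 of 8 members, against 5.77% of all genes tested. The counts behind these values were 21 to 26 under compression and 5 to 20 in controls. Resp18 passed the filter mainly through the compression libraries, where it was high. That selection favours a higher fold change and groups that do not overlap, and the limma-voom fit used the same filter. The log2 fold change was 0.92 (SE 0.35, edgeR adjusted p = 0.376), or 1.89-fold, and its log2 95% interval reached from 0.18 to 1.66. Over all alternatives its log2 fold change stayed between 0.77 and 1.31 and its adjusted p between 0.0338 and 0.688, and only limma-voom gave a p under the threshold.

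The other 7 tested members had groups that overlapped. Calca encodes calcitonin and, by alternative splicing, calcitonin gene-related peptide, which counts per gene do not tell apart. It averaged 0.303 ± 0.171 CPM under compression and 0.348 ± 0.0622 CPM in controls (log2 fold change -0.25, SE 0.37). Chga averaged 0.718 ± 0.129 against 0.738 ± 0.263 CPM (-0.05, SE 0.28), and Chgb 1.17 ± 0.409 against 1.50 ± 0.406 CPM (-0.35, SE 0.31). Scg2, which encodes secretogranin II, the precursor of secretoneurin, averaged 1.04 ± 0.356 against 0.864 ± 0.638 CPM (0.21, SE 0.43). Its sign turned without control replicate 4 (-0.01) and without compression replicate 1 (-0.04). Edges of the 95% intervals show what these data could have missed, since they reached -1.04 and 0.54 for Calca and -0.73 and 1.14 for Scg2 on the log2 scale.

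Insm1, a zinc-finger repressor required for endocrine differentiation, averaged 0.846 ± 0.146 CPM under compression and 0.986 ± 0.661 CPM in controls (-0.23, SE 0.40). Control replicate 1 had 1.93 CPM and the other controls 0.510 to 0.957 CPM, and without it the sign turned (0.38, adjusted p = 0.775). Syp had 7.26, 4.96, 5.57 and 8.38 CPM in compression replicates 1 to 4, against 7.91, 9.26, 5.61 and 7.46 CPM in control replicates 1 to 4 (-0.21, SE 0.20). Uchl1, the most precisely measured member, averaged 25.4 ± 1.87 CPM in compressed lungs and 28.0 ± 2.39 CPM in control lungs. Its log2 fold change was -0.14 (SE 0.08, adjusted p = 0.471) and the 95% limits were -0.31 and 0.03. Neurod1, a transcription factor gene of endocrine and neuronal differentiation, had 0 counts in the 4 compression and the 4 control libraries and 1 count over the 4 Day 0 libraries. It was not tested, and in neither Day 2 group could a level under the floor of its group be detected.

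**Figure D2:**
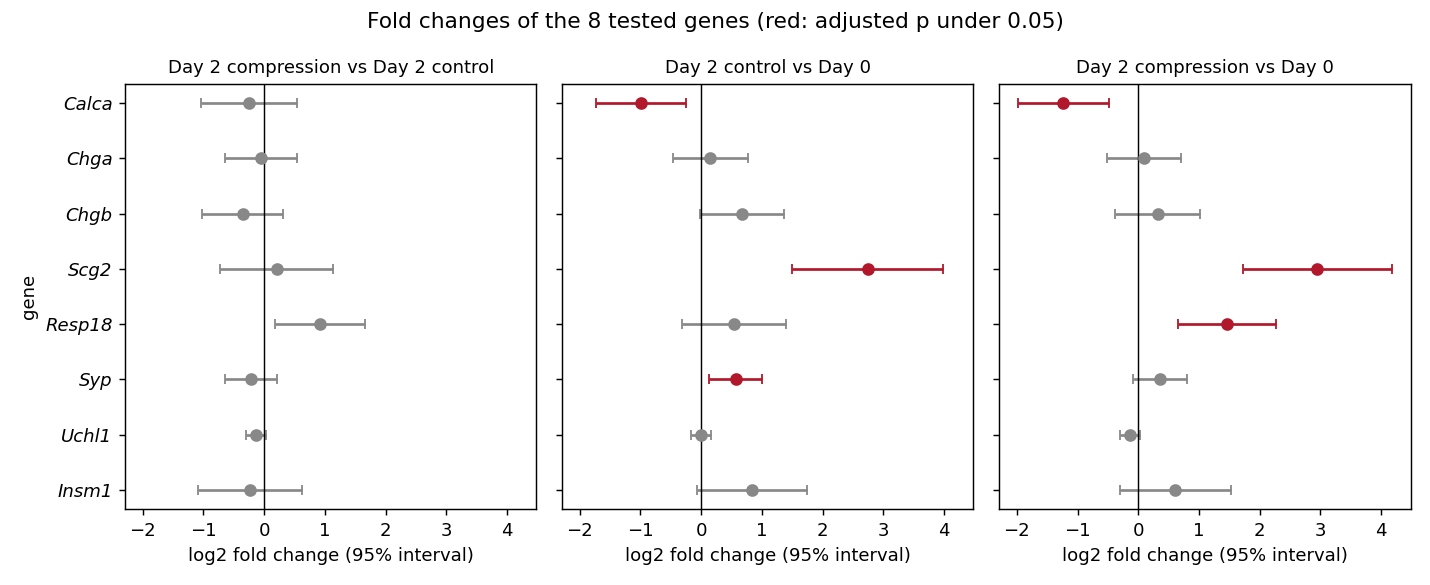
Log2 fold change (horizontal axis) of the 8 tested genes with its 95% interval from edgeR, in 3 panels for the 3 comparisons, with red for an adjusted p under 0.05. No gene is red for compression against control, where Uchl1 has the narrowest interval, and Calca and Scg2 are red in both comparisons with Day 0.

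The controls were compared with Day 0 to give the change over 2 days of culture without restriction. Calca was about 2-fold lower, Scg2 was 6.69-fold higher and Syp 1.48-fold higher in controls. That is 3 of 8 members called, 2 higher and 1 lower, while 40.2% of all genes tested were called (22.6% higher and 17.6% lower), so the count is near the background. Groups did not overlap for 2 of 8 members, Calca and Scg2, against 37.8% of all genes tested. The median log2 fold change of the 8 was 0.55, against 0.02 over all genes tested.

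Calca had 0.386, 0.377, 0.374 and 0.255 CPM in control replicates 1 to 4, against 0.684, 0.783, 0.733 and 0.659 CPM in Day 0 replicates 1 to 4. Every control library was below every Day 0 library, and control replicate 4, a shallow library with 4 counts, was the lowest. The log2 fold change was -0.99 (SE 0.34, edgeR adjusted p = 0.0346). The call was close to the threshold: the adjusted p lay between 0.0488 and 0.0689 when single libraries were left out, and 1 of these 8 fits kept the call. DESeq2 gave 0.0632 and the fit without a filter 0.0515, with log2 fold changes between -1.06 and -0.91 over all alternatives.

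Scg2 had 1.77, 0.823, 0.544 and 0.319 CPM in control replicates 1 to 4, against 0.257, 0.0712, 0.0917 and 0.0898 CPM in Day 0 replicates 1 to 4. Every control was above every Day 0 library, with a 5.55-fold range among the controls. Day 0 libraries held 1 to 6 counts and controls 5 to 55. The log2 fold change was 2.74 (SE 0.58, adjusted p = 0.00196), and every fit in which the gene was tested called it, with values between 2.11 and 3.28. Scg2 did not pass the filter in the fit of only these 8 libraries, so it entered the test through the libraries where it was high, above all those under compression, which favours a higher call. With no filter on low counts its log2 fold change was 2.72 (edgeR adjusted p = 0.00153).

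Syp averaged 7.56 ± 1.51 CPM in controls and 5.11 ± 0.951 CPM at Day 0 (log2 fold change 0.57, SE 0.20, adjusted p = 0.0392). The groups overlapped, since control replicate 3 (5.61 CPM) was below Day 0 replicate 3 (6.005 CPM). The call was lost with limma-voom (0.192), with the replicate number as a block (0.0531) and in 6 of the 8 fits that left out 1 library, where adjusted p reached 0.131. Exons of Syp share 16.8% of their length with the antisense gene Gm14703, and whether the counting used strand is not stated in the sources.

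The remaining members did not pass in this comparison. Chgb averaged 1.50 ± 0.406 CPM in controls and 0.938 ± 0.281 CPM at Day 0 (log2 fold change 0.67, SE 0.32, adjusted p = 0.112). Insm1 averaged 0.986 ± 0.661 CPM against 0.560 ± 0.198 CPM (0.84, SE 0.42, adjusted p = 0.131). Resp18 averaged 0.409 ± 0.186 CPM in controls and 0.309 ± 0.178 CPM at Day 0 (0.54, SE 0.40, adjusted p = 0.307). Chga averaged 0.738 ± 0.263 against 0.680 ± 0.0941 CPM (0.15, SE 0.29), so that of the 3 granins only Scg2 was called, and the difference between granins was not tested. Uchl1 averaged 28.0 ± 2.39 CPM in controls and 28.0 ± 1.05 CPM at Day 0, and its log2 95% limits were -0.17 and 0.17. Exons of Uchl1 share 18.1% of their length with the antisense gene Uchl1os.

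Compression was also compared with Day 0, to give the change over 2 days of restricted culture. This comparison and the one above share the 4 Day 0 libraries, so they are not independent. Here 3 of 8 members were called, Scg2 and Resp18 higher and Calca lower, while 49.1% of all genes tested were called (26.6% higher and 22.5% lower). Groups did not overlap for the same 3, against 43% of all genes tested. The count lies near the background here too. Day 0 libraries held 1 to 6 counts of Scg2 and 5 to 8 of Resp18. Both passed the filter through Day 2 libraries, Resp18 mainly through those under compression, which favours a higher call. With no filter, the edgeR adjusted p was 5.81e-04 for Scg2, 0.00911 for Resp18 and 0.0153 for Calca. All 3 calls were kept in each of the 15 alternatives, among them the 8 fits that left out 1 library.

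Calca had 0.532, 0.315, 0.236 and 0.129 CPM in compression replicates 1 to 4, against the Day 0 values of 0.659 to 0.783 CPM. The compression libraries spread over a 4.11-fold range, with replicate 1 nearest to Day 0. The log2 fold change was -1.24 (SE 0.35, adjusted p = 0.00945), or 2.35-fold lower. Scg2 had 1.52, 0.839, 1.08 and 0.712 CPM in compression replicates 1 to 4, against 0.0712 to 0.257 CPM at Day 0. Every compression library was above every Day 0 library, and the log2 fold change against Day 0 was 2.95 (SE 0.57, adjusted p = 8.24e-04).

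Resp18 had 0.734 to 0.842 CPM under compression, against 0.214, 0.569, 0.275 and 0.180 CPM in Day 0 replicates 1 to 4. The compression libraries were close to each other, with a coefficient of variation of 5.68%, against 45.6% in controls and 57.4% at Day 0. Its log2 fold change was 1.46 (SE 0.38, adjusted p = 0.00552) under compression against Day 0, and 0.54 in controls against Day 0. The difference of these values is the comparison of compression with control, for which edgeR gave an adjusted p of 0.376. A call in 1 comparison and not in the other is therefore no call of a difference.

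Among the rest, Syp averaged 6.55 ± 1.56 CPM under compression and 5.11 ± 0.951 CPM at Day 0 (log2 fold change 0.36, SE 0.20, adjusted p = 0.160). Insm1 averaged 0.846 ± 0.146 against 0.560 ± 0.198 CPM (0.61, adjusted p = 0.253), and Chgb 1.17 ± 0.409 against 0.938 ± 0.281 CPM (0.32, adjusted p = 0.435). Chga averaged 0.718 ± 0.129 against 0.680 ± 0.0941 CPM (0.10, adjusted p = 0.799). Uchl1 averaged 25.4 ± 1.87 CPM under compression and 28.0 ± 1.05 CPM at Day 0 (-0.14, SE 0.08, adjusted p = 0.150), and limma-voom called it lower (-0.22, adjusted p = 0.0194).

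Within the Day 2 groups, several members were highest in the same library, though some of these ranks are near ties, such as Calca in controls at 12, 11 and 11 counts and Resp18 under compression at 0.842 and 0.798 CPM. Compression replicate 1 and control replicate 1 held the highest level of Insm1 (1.03 and 1.93 CPM), Scg2 (1.52 and 1.77), Chgb (1.67 and 1.87) and Calca (0.532 and 0.386) of their groups. The same libraries also had the highest summed neuron markers of their groups, at 204 and 181 CPM, whose part in this pattern was not tested. Compression replicate 4 and control replicate 2 held the highest Chga (0.874 and 1.10 CPM), Resp18 (0.842 and 0.686) and Syp (8.38 and 9.26). At Day 0 the highest Insm1, Calca, Chga and Resp18 were in replicate 2, the library with the lowest total, where Calca, Chga and Insm1 each had 11 counts and Resp18 had 8. With 4 libraries a group no relation across libraries could be tested within groups.

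**Figure D3:**
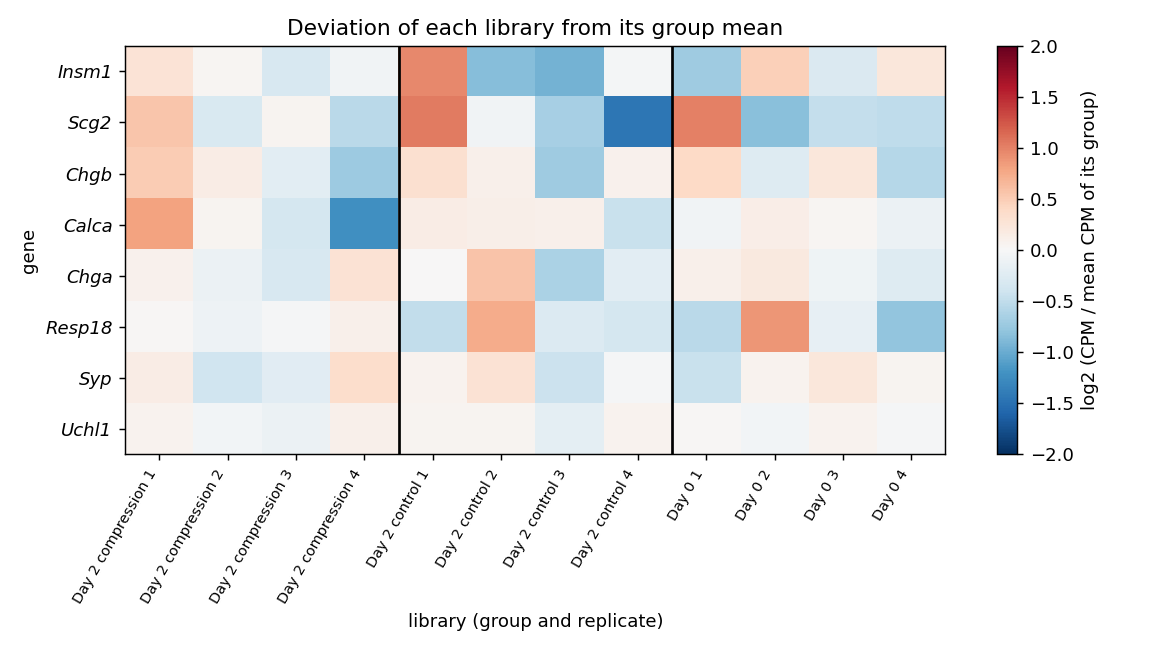
Log2 ratio of the CPM of each library (columns, by group and replicate) to the mean CPM of its group, for the 8 tested members (rows), with red above and blue below the group mean. Replicate 1 of both Day 2 groups is red for Insm1, Scg2, Chgb and Calca, and control replicate 2 is red for Chga, Resp18 and Syp.

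Further genes were followed in lists by role, and not all of them are particular to these cells. Sox11, Rest, Mycl and Hes1 were the highest of the transcription factor list, at 145, 82.7, 62.5 and 58.5 CPM under compression. Over all genes tested, 22.6% were called higher and 17.6% lower in controls against Day 0, and 26.6% and 22.5% under compression. Of 10 other tested transcription factors, 2 were called higher and 3 lower in controls against Day 0, and 2 higher and 3 lower under compression against Day 0. These counts are near the shares over all genes. Those with the smallest p included Rfx6, an endocrine factor of pancreas and gut, which fell to 0.0688 ± 0.0275 CPM under compression and 0.0678 ± 0.0628 CPM in controls, against 1.13 ± 0.307 CPM at Day 0. Its log2 fold changes were -3.91 and -3.80 (adjusted p = 1.66e-05 and 3.21e-05). Day 2 libraries held at most 4 counts of Rfx6, so it passed the filter through Day 0 libraries, which favours a lower call. Sox11 also fell (-1.08 and -0.94), as did Isl1, a factor of neurons and endocrine cells (-0.99 and -0.65). Mycl (1.19 and 0.67) and the Notch target Hes1 (0.43 and 0.32) rose in both. Hey1, of the Notch list below, went the other way from Hes1. Its log2 fold change was -0.41 under compression (edgeR adjusted p = 0.0873, not called) and -0.74 in controls (edgeR adjusted p = 0.00763).

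Of 10 tested peptides and transmitter enzymes, 4 were higher and 2 lower against Day 0 in both Day 2 groups. The shares over all genes were 26.6% higher and 22.5% lower under compression, and 22.6% and 17.6% in controls. Calcb, the second calcitonin gene-related peptide gene, lies 82.3 kb from Calca on chromosome 7. It fell to 0.140 ± 0.0699 CPM under compression and 0.125 ± 0.0601 CPM in controls, against 0.931 ± 0.295 CPM at Day 0 (log2 fold changes -2.68 and -2.76). With at most 6 counts in any Day 2 library, Calcb passed the filter through Day 0 libraries, which favours a lower call. The sequences of Calca and Calcb are alike, and how reads that match both were counted is not stated in the sources. Ddc, the decarboxylase of amine synthesis, rose to 20.3 ± 1.92 CPM under compression and 19.5 ± 1.46 CPM in controls, against 9.80 ± 1.56 CPM at Day 0. Vip, a peptide of airway neurons, rose to 3.62 ± 1.19 and 3.73 ± 2.51 CPM, against 0.469 ± 0.211 CPM at Day 0. Penk, which encodes proenkephalin, was the member of this list with the smallest p for compression against control (0.74, adjusted p = 0.0767).

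The 20 other genes of dense-core granules and vesicles were all tested. Against Day 0, 8 were higher and 2 lower under compression, and 7 were higher and 2 lower in controls, which became 4 and 1 without control replicate 4. Among all genes tested, 26.6% were higher and 22.5% lower under compression, and 22.6% and 17.6% in controls. Their median log2 fold changes were 0.49 and 0.34, against 0.02 over all genes in both. Syt4, a synaptotagmin of granules, stood at 7.55 ± 0.929 CPM under compression, 5.47 ± 1.40 CPM in controls and 1.84 ± 0.0995 CPM at Day 0 (log2 fold changes against Day 0 of 2.04 and 1.56). Snap25, a fusion protein of the plasma membrane, rose (1.41 and 1.26), as did Cpe, a peptide-processing enzyme (0.50 and 0.41), whereas the syntaxin gene Stx1a fell (-0.60 and -0.34).

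Among receptors for these peptides, 6 were tested and 1 was higher and 1 lower in each Day 2 group against Day 0. That is near the share over all genes. Grpr, the receptor of gastrin-releasing peptide, rose (1.10 under compression and 1.22 in controls), and Ramp2, a partner of the calcitonin-like receptor that vessels use, fell (-0.73 and -0.92). Calcr, the calcitonin receptor, had the smallest p for compression against control (-1.12, adjusted p = 0.324), with groups that did not overlap. Of 10 tested Notch genes, 1 was higher and 4 lower under compression, and 0 were higher and 4 lower in controls against Day 0. All genes tested were lower in 22.5% under compression and 17.6% in controls, and higher in 26.6% and 22.6%. Dll4, a ligand of vessels, fell (-1.41 under compression and -1.39 in controls), and Dll1, a ligand on committed cells, fell (-0.73 and -1.11).

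Markers of other sources were set beside these changes. As background, 26.6% of all genes were higher and 22.5% lower under compression against Day 0, and 22.6% and 17.6% in controls. Of 16 neuron markers, 6 were higher and 3 lower under compression, and 5 were higher and 4 lower in controls against Day 0. Prph, a filament of peripheral neurons, rose (1.99 and 1.57), while the growing-axon gene Gap43 (-0.69 and -0.76) and the neurofilament gene Nefm (-1.16 and -0.92) fell. Of 7 tested neural crest and glia markers, 1 was higher and 1 lower (Ednrb, -0.40) under compression against Day 0, and edgeR called 0 in controls, where 1 had an unadjusted p under 0.05. Of 7 tested airway epithelium markers, 6 were higher under compression and 5 in controls, among them Cdh1 (1.02 in both) and the multiciliated cell regulator Foxj1 (6.50 and 5.50), with 0 lower. In compression against control, edgeR called 0 genes of any of these lists, and at an unadjusted p under 0.05 there were 1 of 10 transcription factors, 2 of 10 peptides, 3 of 20 granule genes, 1 of 6 receptors, 1 of 10 Notch genes, 1 of 16 neuron, 3 of 7 crest, 3 of 7 airway and 3 of 4 liver markers, against 12.1% of all genes tested. The liver markers had their high values in control replicate 4. Without control replicate 4, an alternative chosen after seeing the data, 1 gene of the peptide list passed, in the higher direction.

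**Figure D4:**
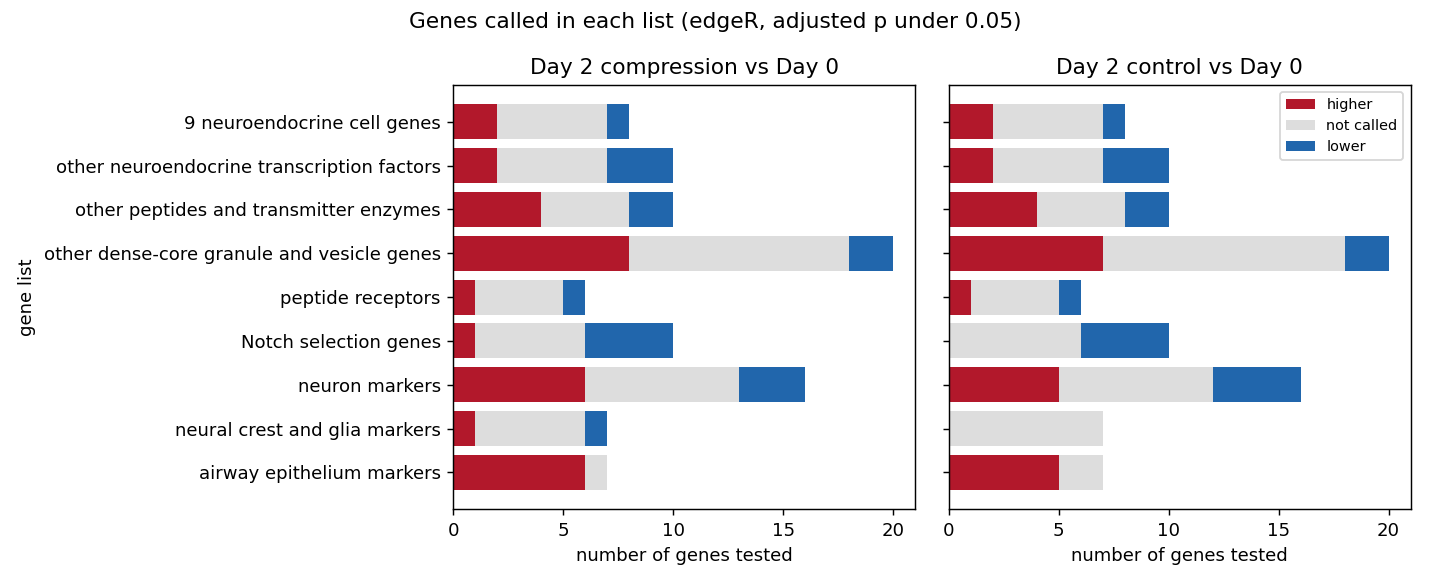
Number of tested genes (horizontal axis) called higher (red), not called (grey) or called lower (blue) by edgeR in each list (rows), for compression against Day 0 on the left and controls against Day 0 on the right. The granule and vesicle list has 8 and 7 genes higher and 2 lower in each panel, and the 9 neuroendocrine cell genes have 2 higher and 1 lower of the 8 tested.

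Calca, Calcb and Rfx6 are also expressed by endocrine cells outside the lung, so markers of such tissue were measured. Of 10 gut and pancreas endocrine markers, Ins1, Ins2, Neurog3, Pdx1, Gip and Ppy had 0 counts in all 12 libraries. The summed level of the 10 was 0.129 to 0.210 CPM under compression, 0.0638 to 0.274 CPM in controls and 0.150 to 0.569 CPM at Day 0. Thyroid markers, of which Tg encodes thyroglobulin, summed to 0.210 to 0.486 CPM under compression, 0.102 to 0.446 CPM in controls and 0.471 to 0.963 CPM at Day 0. Tg fell with Calca, to 0.223 ± 0.0460 CPM under compression and 0.172 ± 0.108 CPM in controls, against 0.551 ± 0.166 CPM at Day 0 (log2 fold changes -1.29 and -1.62). With 5 to 9 counts under compression and 2 to 10 in controls, Tg passed the filter mainly through Day 0 libraries, which favours a lower call. The part of such tissue in the level of Calca at Day 0 was not tested.

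In the GRCm38 (mm10) annotation Calca lies on chromosome 7 (114631478 to 114636357, minus strand), and Scg2 and Resp18 lie on chromosome 1 (79434669 to 79440120 and 75272199 to 75278415, both minus strand). Chgb (132781278 to 132795079) and the single-exon gene Insm1 (146221921 to 146225020) lie on chromosome 2, plus strand, and Chga on chromosome 12 (102554969 to 102565028, plus strand). Uchl1 lies on chromosome 5 (66676091 to 66687234, plus strand) and Syp on chromosome X (7638471 to 7653256, plus strand). Exons of Calca, Chga, Chgb, Insm1 and Scg2 overlapped no other annotated exon, and those of Resp18 shared 3.88% of their length with an antisense gene.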

How the data were processed

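RNA was measured by bulk sequencing in 12 libraries. Per the labels' protocols, RNA came from an RNeasy Micro kit and the mRNA libraries from a KAPA HyperPrep kit. The deposited values are whole-number counts, unnormalized, with 1 row for each gene symbol. Per the submitters' processing notes, fastp, STAR and the mm10 build were used. The sources give no versions, counting step, annotation or strand setting. Groups and replicate numbers came from the titles.

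The analysis used edgeR 4.0.16 under R 4.3.3: filterByExpr (min.count 10, min.total.count 15), TMM, 1 robust quasi-likelihood fit of all 12 libraries with group as the only term, and Benjamini-Hochberg adjustment over 15246 genes at 0.05. The script was tested on simulated data. Alternatives used limma 3.58.1, DESeq2 1.42.0, other scaling, filters and sample sets. All members are named. From each other list, genes were named from the up to 4 with the smallest p in a comparison and at least 0.5 CPM in 1 group, with their values in the other comparisons (markers at 0 are named as such, and Grp is added for its role). The members, lists and tests were chosen with earlier results of these data known. Some genes of these lists are counted but not reported here by name. Exon lengths and coordinates came from GENCODE M21.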

Additional observations from a re-analysis of the deposited data

Results flagged for a closer look

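Of 70 sets of 4 libraries examined (a gene or a summed list in 1 group), 9 held a library far from the other 3. The rule flags about 1 in 20 sets of independent normal values. Low counts and sums that share genes with other sets are not such values, so 9 cannot be set against that rate. Calca was 0.255 CPM in control replicate 4 and 0.374 to 0.386 CPM in the other controls. Neurod1 was 0.0458 CPM in Day 0 replicate 3, from 1 count, and at 0 in the other Day 0 libraries, a pattern that the rule always flags. Resp18 was 0.686 CPM in control replicate 2 and 0.290 to 0.340 CPM in the other controls. Uchl1 was 24.5 CPM in control replicate 3 and 29.0 to 29.5 CPM in the others. Scg2 was 0.257 CPM in Day 0 replicate 1 and 0.0712 to 0.0917 CPM in the other Day 0 libraries. The sum of the 9 neuroendocrine cell genes was 38.7 CPM in Day 0 replicate 3 and 35.5 to 36.1 CPM in the others. In compression replicate 1 the summed transcription factors stood at 421 CPM (347 to 359 CPM in the other compression libraries) and the summed granule and vesicle genes at 344 CPM (299 to 303 CPM). Most of the transcription factor sum came from Sox11, Rest, Mycl and Hes1, which are not particular to neuroendocrine cells. The summed liver markers of control replicate 4 stood at 1836 CPM, against 62.8 to 74.6 CPM in the other controls.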

How the results depend on the processing

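Of 358 fold changes of members under the alternatives, 323 kept their direction and side of the threshold, 17 lost the call, 2 gained it and 16 turned sign, none of which passed the threshold. With limma-voom, Chga turned to 0.036 and Insm1 to 0.24 (log2, compression against control), and Chga to -0.046 (controls against Day 0) and -0.0096 (compression against Day 0). With compression replicates 2 and 3 summed, an alternative chosen after seeing the data, Chga was 0.0039 for compression against control. Leaving out each library in turn, compression against control ranged from -0.65 to 0.0099 for Calca, -0.21 to 0.22 for Chga, -0.45 to 0.38 for Insm1 and -0.039 to 0.82 for Scg2. In the same fits, controls against Day 0 ranged from -0.13 to 0.30 for Chga and -0.043 to 0.044 for Uchl1, and compression against Day 0 from -0.032 to 0.18 for Chga. The causes were not tested.

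Members called in controls against Day 0 numbered 1 to 2 when single libraries were left out, against 3 with all 12, and 1 without Day 0 replicate 1 or 2 or control replicate 1, 2 or 4. For compression against control, 1 member was called by limma-voom, Resp18. Over all genes that comparison gave 0 calls with edgeR, 69 with DESeq2, 1958 with limma-voom, 4 with only the 8 libraries compared, and 0 to 53 when single libraries were left out, 53 of them without control replicate 4 and 19 without compression replicate 1. With the replicate number as a block, 0 members and 0 of 15246 genes were called for compression against control, 2 members and 6569 genes for controls against Day 0, and 3 members and 7895 genes for compression against Day 0. The numbers showed no pairing: correlations of same-numbered libraries lay between -0.18 and 0.17, and 9 of 24 best matches had the same number. Levels under 1 CPM rest on few counts, and smaller differences in Calca, Resp18 and Scg2 could have been missed. The libraries of a group also differed, as for Scg2 with 5 to 55 counts in controls. The parts of depth and of this spread were not tested.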

Other observations

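The tested genes with profiles most like those of single members were found by the root mean square difference, over the 12 libraries, of log2 CPM centred on the Day 0 mean, among genes within 1 log2 unit of the level of the member. The closest were Fxyd6 for Uchl1 (0.0847), Smpd3 for Syp (0.184), Fam57b for Chga (0.223) and Necab1 for Chgb (0.241), all on the log2 scale. For Calca and Scg2 the smallest differences were larger, at 0.297 and 0.508.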
